A study of Mus musculus with 6 samples.

Results

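The genes described here are 10 named factors and targets of HIF-1, the hypoxia-inducible transcription factor, with targets that act in glycolysis left out: the subunit genes Hif1a and Arnt, the regulator Vhl, and the hypoxia-induced genes Ankrd37, Bnip3, Ndrg1, Selenbp1, Mxi1, Bhlhe40 and Ddit4. Of these 10, 9 were found by symbol among the 17872 genes of the count table, all 9 passed the filter on low counts, and Hif1a was not analysed here. They were chosen by their fold changes between the 2 groups compared here, several being among the largest decreases, so their levels in this contrast are given as a description, with no test.

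Poly(A) RNA was sequenced from 6 libraries of BV2, an immortalised mouse microglial line. In 3 libraries labelled Tfam-KO the gene Tfam had been targeted with CRISPR-Cas9, and 3 WT libraries served as controls; both groups are listed as otherwise untreated. Puromycin at 2 µg/mL, the culture after editing, is listed for the libraries of both groups. The labels do not say whether WT cells carried a control construct, nor whether the edited cells were 1 clone or a pool. They also do not say whether replicates were separate cultures, so p-values measure only the spread between these libraries, which may be technical.

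Tfam codes for a mitochondrial protein that coats the organelle's DNA and is needed to transcribe it. Its raw counts were 868, 743 and 619 in the labelled Tfam-KO libraries and 1098, 591 and 524 in the WT libraries, or 42.3 ± 1.15 and 38.2 ± 1.01 counts per 1e+06 (CPM, scaled by TMM factors; mean ± SD, n = 3 each). The Tfam mRNA was thus not lower (log2 fold change 0.14, adjusted p = 0.193, edgeR's quasi-likelihood test), and the libraries are called by their label throughout. Transcripts of the mitochondrial genome took 1.37% to 1.42% of counts in the labelled Tfam-KO libraries and 3.52% to 4.31% in WT. Total counts were 13850691 to 20889786 in the labelled Tfam-KO libraries and 14642397 to 28418133 in WT, the deepest being WT replicate 1. Of 13403 genes tested, 44.2% were called at an adjusted p below 0.05, 2859 higher and 3067 lower in the labelled Tfam-KO libraries. Higher genes made up 48.2% of those calls, and 61.8% with scaling by library totals only.

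HIF-1 is a dimer of an oxygen-regulated alpha subunit and the constant partner ARNT. When oxygen is plentiful, prolyl hydroxylases of the EGLN family mark the alpha subunit, the VHL protein binds the mark, and a ubiquitin ligase built on VHL, elongins B and C, CUL2 and RBX1 sends the subunit for destruction. When oxygen or the hydroxylases' activity is low, the alpha subunit accumulates, pairs with ARNT and binds short DNA elements whose core is ACGTG or GCGTG. Most of this control acts on the protein, which RNA sequencing does not measure.

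The sequences upstream of the target genes are shown because those cores are the letters the factor is known to bind. RefSeq start windows of 300 bases (250 before to 50 after a start; GRCm38.p6, a different build from the GRCm39 of the submitters' processing notes) were used for 7 of the 9 counted genes, all but Ndrg1 and Bhlhe40. ACGTG and GCGTG were searched on both strands. The 250 bases upstream of the start are printed 5′ to 3′ on the gene's strand, with each core in capitals; a core on the other strand reads CACGT or CACGC, and neighbouring cores can overlap. They cover chr8:45999851-46000100 (minus strand) for Ankrd37, chr3:94932833-94933082 (plus strand) for Selenbp1, chr7:138909507-138909756 (minus strand) for Bnip3 and chr10:59951771-59952020 (minus strand) for Ddit4.
Ankrd37: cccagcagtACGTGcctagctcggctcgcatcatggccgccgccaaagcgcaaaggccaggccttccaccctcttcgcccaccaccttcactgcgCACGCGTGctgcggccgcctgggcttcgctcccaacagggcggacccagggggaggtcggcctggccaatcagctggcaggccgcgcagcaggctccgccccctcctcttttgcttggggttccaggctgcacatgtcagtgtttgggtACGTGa
Selenbp1: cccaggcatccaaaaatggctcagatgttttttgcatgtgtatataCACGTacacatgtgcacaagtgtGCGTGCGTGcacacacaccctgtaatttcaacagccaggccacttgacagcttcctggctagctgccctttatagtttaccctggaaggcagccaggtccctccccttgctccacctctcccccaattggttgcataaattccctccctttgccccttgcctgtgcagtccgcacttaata
Bnip3: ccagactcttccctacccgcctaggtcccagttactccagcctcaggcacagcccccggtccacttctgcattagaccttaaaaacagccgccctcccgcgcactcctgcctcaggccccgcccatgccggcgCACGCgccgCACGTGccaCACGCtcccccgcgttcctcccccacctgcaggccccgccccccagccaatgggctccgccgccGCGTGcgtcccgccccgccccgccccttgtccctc
Ddit4: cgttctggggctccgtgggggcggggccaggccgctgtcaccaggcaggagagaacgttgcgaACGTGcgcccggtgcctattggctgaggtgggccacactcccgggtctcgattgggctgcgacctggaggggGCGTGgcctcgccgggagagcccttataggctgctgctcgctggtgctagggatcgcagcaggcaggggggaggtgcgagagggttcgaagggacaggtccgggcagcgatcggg

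The Ankrd37 window held cores starting at 4 positions, from 241 bases to 6 bases upstream of the start, and the middle pair overlap. The Selenbp1 window held 3, from 204 to 177 bases upstream, and the last pair overlap. The Bnip3 window held 5, of which a palindromic CACGTG (the E-box, which contains ACGTG on both strands) gives 2. Ddit4 had 1 of each core. Of the 3 start windows listed for Mxi1, 2 held a single ACGTG and 1 held neither core. The Arnt window held a single GCGTG and the Vhl window neither core. Over 32851 start windows in the table, 19.62% held ACGTG, 32.39% held GCGTG, 43.77% held either and 7.15% held CACGTG. Counted by gene, over all of its windows, 6 of the 7 genes here had either core and 5 had ACGTG, against 66.7% and 29.5% of 9716 tested genes in the table. A match is only a match of letters in this window.

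**Figure D1:**
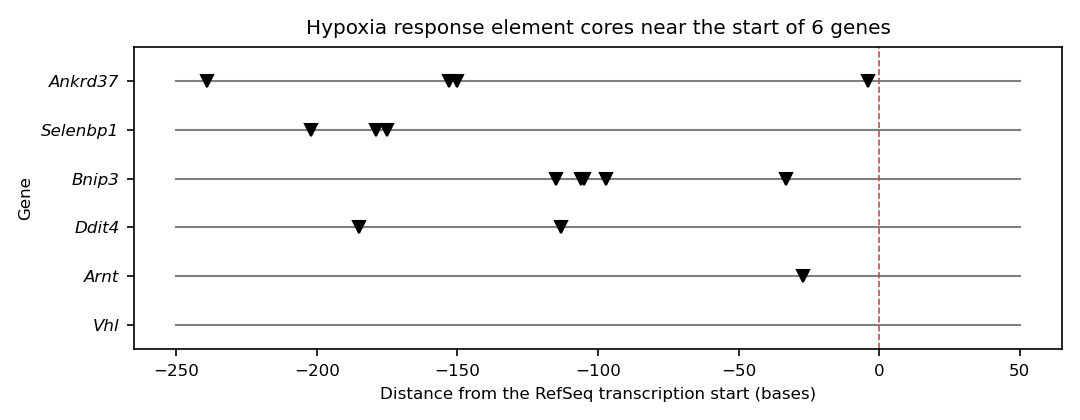
Each line is 1 start window of a gene, from 250 bases before to 50 after the RefSeq transcription start (dashed line at 0), and each triangle is the middle of an ACGTG or GCGTG on either strand. Cores are drawn for Ankrd37 (4), Selenbp1 (3), Bnip3 (5), Ddit4 (2) and Arnt (1), all upstream of the start, and none for Vhl; Mxi1, with 3 windows, is not drawn.

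Among the regulators, Arnt, the partner subunit, had 132, 154 and 141 CPM in replicates 1 to 3 of the labelled Tfam-KO libraries and 106, 107 and 108 CPM in WT (raw counts 2807, 2677 and 2016 against 2992, 1635 and 1532). All 3 labelled Tfam-KO libraries lay above all 3 WT libraries, by a factor of 1.22 between the nearest pair, and the log2 fold change was 0.41. In bulk RNA, a change in the number of cells with a transcript and a change in its amount per cell cannot be told apart. Vhl, the substrate receptor of the ubiquitin ligase, had 15.96, 12.2 and 12.97 CPM in the labelled Tfam-KO libraries and 14.8, 15.5 and 15.9 CPM in WT. These ranges overlapped, with replicate 1 of the labelled Tfam-KO group the highest of all 6, and the log2 fold change was -0.16 ± 0.13 (SE).

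Of the 7 hypoxia-induced genes, Ankrd37 differed most. It encodes an ankyrin-repeat protein and is a direct HIF-1 target. Its raw counts were 61, 33 and 38 in the labelled Tfam-KO libraries and 2301, 1987 and 1607 in WT, or 2.88, 1.896 and 2.65 CPM against 81.8, 130 and 114 CPM. The fitted level was 43.3-fold lower in the labelled Tfam-KO libraries, the 4th lowest log2 fold change of all 13403 tested genes (-5.44). The lowest WT library still exceeded the highest labelled Tfam-KO library by a factor of 28.4.

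Bnip3 encodes an outer-membrane receptor that recruits autophagosomes to mitochondria. It had 13.6, 12.1 and 14.6 CPM in the labelled Tfam-KO libraries and 114, 124 and 134 CPM in WT, from raw counts of 288, 210 and 209 against 3216, 1897 and 1897. The fitted level was 9.25-fold lower, and the groups lay far apart, the nearest libraries differing by a factor of 7.84. Ddit4, also called REDD1, restrains the growth kinase complex mTORC1 through the TSC complex and responds to several stresses beside hypoxia. It had 24.0, 20.6 and 19.3 CPM in the labelled Tfam-KO libraries and 36.3, 48.8 and 51.0 CPM in WT, a log2 fold change of -1.08. The groups did not overlap, and their nearest libraries differed by a factor of 1.51.

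Ndrg1, a cytoplasmic protein induced by hypoxia, metals and differentiation, had 66.9, 62.9 and 73.9 CPM in the labelled Tfam-KO libraries and 253, 270 and 260 CPM in WT. It had the smallest relative spread in WT among the hypoxia-induced genes here (coefficient of variation 3.29%), and the fitted level was 3.84-fold lower in the labelled Tfam-KO libraries.

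Selenbp1 encodes a selenium-binding methanethiol oxidase. It had 31.0, 29.1 and 32.7 CPM in the labelled Tfam-KO libraries and 438, 605 and 574 CPM in WT, and raw counts of 657, 507 and 469 against 12314, 9282 and 8115. The fitted level was 17.4-fold lower, and the nearest libraries of the groups differed by a factor of 13.4. The neighbouring relative Selenbp2 is 98.5% identical to it over 1712 aligned transcript bases, and the treatment of reads matching both is not stated by the submitters' notes or labels, so each gene's value is uncertain. Selenbp2 had 641, 473 and 443 raw counts in the labelled Tfam-KO libraries and 1441, 839 and 862 in WT. Selenbp2 thus took 49.4%, 48.3% and 48.6% of the pair's counts in the labelled Tfam-KO libraries and 10.5%, 8.29% and 9.60% in WT. With both genes summed, a step chosen after the data were seen, the pair had 60.4 ± 3.74 CPM in the labelled Tfam-KO libraries and 595 ± 92.3 CPM in WT (SD, n = 3 each), a log2 fold change of -3.30 in place of -4.12 for Selenbp1 alone.

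**Figure D2:**
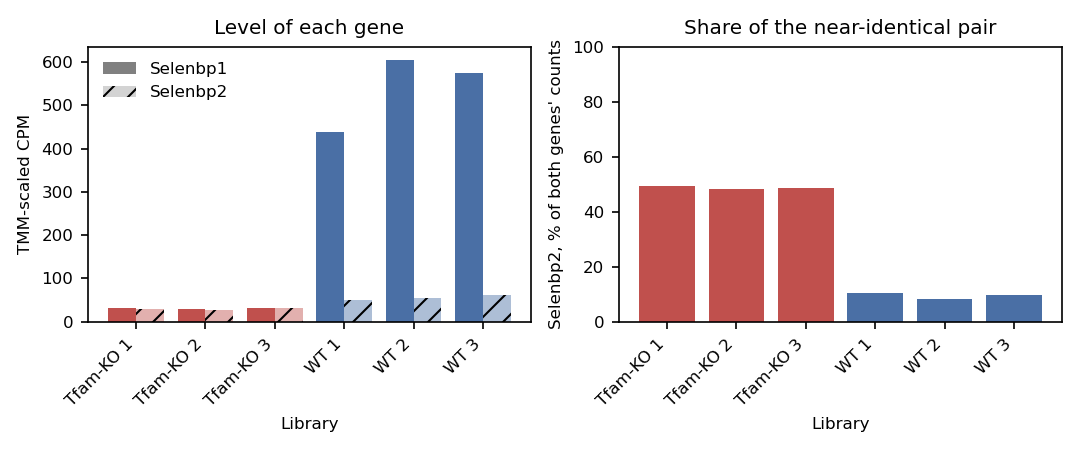
The left plot gives TMM-scaled CPM of Selenbp1 (solid) and Selenbp2 (hatched) in each library, labelled Tfam-KO in red and WT in blue; the right plot gives Selenbp2 as a percentage of the raw counts of both genes. Selenbp2 takes 48.3% to 49.4% of the pair in the labelled Tfam-KO libraries and 8.29% to 10.5% in WT.

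Among the 7 hypoxia-induced genes, the transcriptional repressors differed least. Mxi1, a MAX partner that opposes MYC, had 167, 179 and 181 CPM in the labelled Tfam-KO libraries and 238, 269 and 262 CPM in WT, a log2 fold change of -0.54. Bhlhe40, a basic helix-loop-helix repressor also known as DEC1, had 103, 113 and 98.0 CPM in the labelled Tfam-KO libraries and 144, 165 and 163 CPM in WT, a log2 fold change of -0.58. In both genes every labelled Tfam-KO library lay below every WT library, with the nearest libraries 1.32 and 1.28 times apart for Mxi1 and Bhlhe40.

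**Figure D3:**
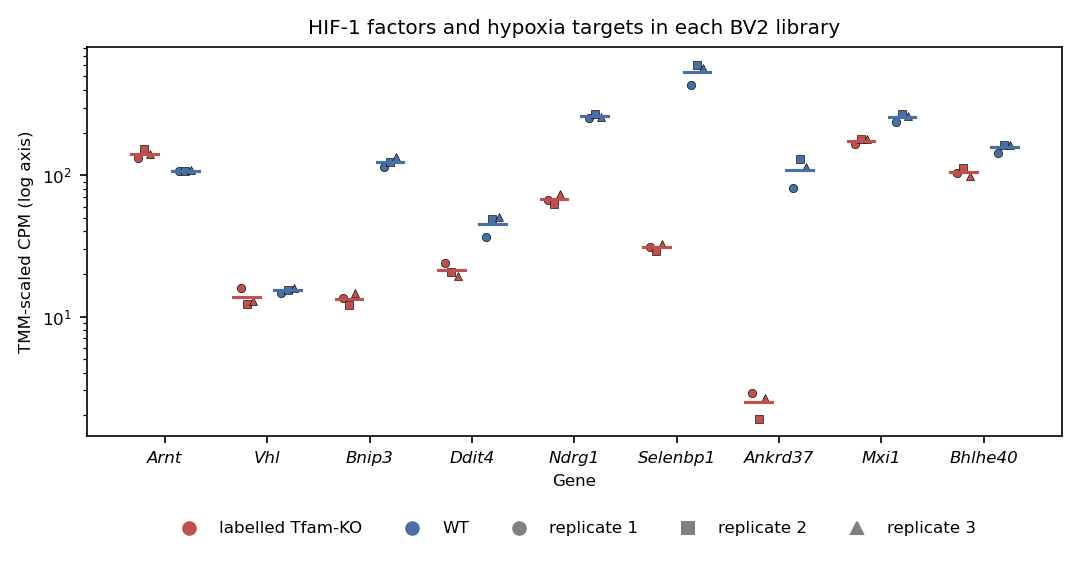
Points are TMM-scaled CPM on a log axis for each library, labelled Tfam-KO in red to the left of WT in blue, with the replicate number as the symbol and a bar at each group mean. The groups are apart for every gene but Vhl, Arnt is the 1 gene higher in the labelled Tfam-KO libraries, and Ankrd37 has the widest gap.

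Across the 9 genes, 7 were lower and 1 (Arnt) was higher with calls at the threshold, where 22.9% and 21.3% of all tested genes were called lower and higher. A drop of at least 2-fold was seen in 5, against 5.54% of tested genes, and groups did not overlap for 7 lower genes, against 26.6% of tested genes. The median log2 fold change was -1.08 over the 9 genes and 0.00 over all tested genes. As this contrast chose the genes, nothing is read from these counts.

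Within the WT group, replicate 1 had the lowest value of the WT libraries for all 7 lower genes, among them Ankrd37 (81.8 CPM against 130 and 114 in the other two), Selenbp1 (438 against 605 and 574) and Ddit4 (36.3 against 48.8 and 51.0). WT replicate 1 was also the lowest WT library for 35.2% of all tested genes and for 54.5% of those called lower. For the other non-glycolytic hypoxia-induced genes called lower, listed below, it was lowest in 16 of 27 (59.3%). It was the most deeply sequenced library, and the part of depth in this order was not tested. Without WT replicate 1 the log2 fold changes of the same genes were all larger in size, and the median over the 9 genes was -1.21.

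Levels were compared between genes per kilobase of the longest annotated protein-coding transcript (GENCODE M21). In the labelled Tfam-KO libraries the order of mean levels was Mxi1 (34.9 CPM per kilobase), Bhlhe40 (33.6), Arnt (32.9), Ndrg1 (23.5), Selenbp1 (18.1), Ddit4 (12.1), Bnip3 (7.64), Vhl (4.91) and Ankrd37 (2.67), where the ranges of the first 3 overlapped and no other neighbours did. In WT the order was Selenbp1 (315), Ankrd37 (117), Ndrg1 (90.3), Bnip3 (70.7), Mxi1 (50.9), Bhlhe40 (50.5), Ddit4 (25.8), Arnt (24.8) and Vhl (5.52), where Ankrd37 and Ndrg1, Mxi1 and Bhlhe40, and Ddit4 and Arnt overlapped. Ankrd37 stood last in the labelled Tfam-KO libraries and second in WT, and Selenbp1 stood behind Ndrg1 in the labelled Tfam-KO libraries and first in WT.

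Genes with the most similar profile were sought among 9411 other genes averaging 5 CPM or more, by the distance over the 6 libraries between log2 CPM values centred on the WT mean. For Ankrd37 they were the arginase gene Arg1 (distance 0.633), the glucose transporter gene Slc2a3 (0.803) and the collagen gene Col12a1 (1.11). For Selenbp1 they were Chd5 (0.328), Ocstamp (0.564) and Lmcd1 (0.920), and for Bnip3 they were Hdac7 (0.452), Mamdc2 (0.534) and the prolyl hydroxylase gene Egln3 (0.537). The chemokine receptor gene Ccr1 lay nearest to Ndrg1 (0.122), Cytip to Ddit4 (0.168), Ppm1j to Bhlhe40 (0.0795), Ttyh2 to Mxi1 (0.0919), Ttc39b to Arnt (0.0476) and Chmp6 to Vhl (0.0801). Small distances are easier to find for genes that differ little between groups. With values centred on WT, the distance largely follows the log2 fold change, from which the 9 genes were chosen. Chd5 and Selenbp1, for example, both had -4.12. Likeness here is a description, and shared regulation was not tested. Predicted Gm and Rik models, genes named by clone and genes of the mitochondrial genome were left out of the search.

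Some counts can include reads of other genes, because the library kit does not mark strand. Exons of Ankrd37 share 349 bases with Lrp2bp on the opposite strand, which had 31, 21 and 18 counts in the labelled Tfam-KO libraries and 98, 25 and 55 in WT. In WT these lie far below the counts of Ankrd37, but in the labelled Tfam-KO libraries, where Ankrd37 had 61, 33 and 38 counts, the 2 genes are closer in counts. Ankrd37 exons also share 57 bases with Ufsp2 on the opposite strand. Ufsp2 had 2224, 1625 and 1422 counts in the labelled Tfam-KO libraries and 3360, 1934 and 1702 in WT. In the labelled Tfam-KO libraries these lie far above the counts of Ankrd37. How many reads Ankrd37 shares with either gene was not tested. Bnip3 has pseudogene copies. The counted one, Gm9419 (95.2% identical over 567 bases), had at most 5 counts in a labelled Tfam-KO library and 8 in a WT library. Closer copies were not among the counted genes. They include Gm16439 (98.9% over 564 bases), Gm6532 (98.6% over 559) and the non-coding AC160336.1 (98.3% over 858). The part of reads from such copies in the Bnip3 counts was not tested.

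The wider oxygen-sensing machinery was examined next, from 22 genes for hydroxylases, other HIF subunits, the VHL ligase, coactivators and chaperones. Of 21 tested, 7 fell, 2 rose and 12 were not called, against 44.2% of all tested genes called, and the median log2 fold change was -0.11. The hydroxylase genes, themselves HIF targets in part, held the largest decreases. Egln3 had 43.4 ± 6.59 CPM in the labelled Tfam-KO libraries and 475 ± 65.4 CPM in WT (log2 fold change -3.45, adjusted p = 8.08e-13, edgeR). Egln1, the main oxygen sensor in most cells, had 59.7 ± 6.26 against 225 ± 24.0 CPM in WT (log2 fold change -1.91, adjusted p = 5.78e-11, edgeR). Egln2, by contrast, had 24.2 ± 2.19 CPM in the labelled Tfam-KO libraries and 22.2 ± 2.57 CPM in WT and did not pass, nor did Hif1an, the asparaginyl hydroxylase that blocks coactivator binding (29.7 ± 1.81 against 26.5 ± 3.50 CPM).

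Within the VHL ligase the parts differed in direction. The elongin genes Elob (log2 fold change -0.59) and Eloc (-0.30) and the RING protein gene Rbx1 (-0.55) fell, while the scaffold gene Cul2 rose (0.65; 138 ± 5.80 CPM in the labelled Tfam-KO libraries and 87.6 ± 11.3 CPM in WT, adjusted p = 1.27e-05, edgeR). The HIF-2 alpha subunit gene Epas1 fell by 0.63 on the log2 scale and Cited2, which competes with HIF for coactivators, by 0.47. Siah1a, a ubiquitin ligase gene, rose by 0.48, and the coactivator genes Ep300 (0.15) and Crebbp (0.08) and the chaperone genes Hsp90aa1 (-0.17) and Hsp90ab1 (-0.03) did not pass. Ep300 passed as higher without replicate 1 of the labelled Tfam-KO group (adjusted p = 0.0208, edgeR), with library totals, with the authors' log2 table and with length and GC offsets, where Egln2 passed as higher and Hsp90aa1 as lower too. Hif3a was at 0 to 6 raw counts in each library and was not tested.

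Close relatives of the 10 listed genes were measured to see whether paralogs differed with them. Of 12 tested, 7 fell (against 22.9% of all tested genes), none rose (against 21.3%) and 5 were not called. The median log2 fold change was -0.39. Among the fallen, Epas1, Bnip3l, Bhlhe41, Mxd1, Mxd4 and Mnt are also counted in other lists here, so the counts of the lists are not separate results. Bnip3l, the other BNIP3-type mitophagy receptor, fell by 1.04 on the log2 scale, with 73.0 ± 5.15 CPM in the labelled Tfam-KO libraries and 150 ± 10.3 CPM in WT. Selenbp2 fell by 0.92 and Bhlhe41, the paralog of Bhlhe40, by 0.79. Ndrg3 did not pass (71.6 ± 2.58 against 73.1 ± 2.46 CPM in WT), nor did Ndrg4, and Ndrg2 was too low to test. Of the other bHLH-PAS partner genes, Arnt2 (-0.42, adjusted p = 0.0529, edgeR) and Arntl (0.21) did not pass, but without replicate 1 of the labelled Tfam-KO group they passed as lower and as higher (adjusted p = 0.0253 and 0.0487, edgeR).

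Other hypoxia-induced genes outside glycolysis were taken from a list of 46, of which 40 were tested. Of these 40, 27 fell, 6 rose and 7 were not called, around a median log2 fold change of -0.72; of all tested genes 22.9% fell and 21.3% rose. The list was drawn up with earlier results of these data known, so its direction is not independent evidence. The collagen-modifying hydroxylase gene Plod2 fell by 2.27 on the log2 scale, with 44.0 ± 3.21 CPM in the labelled Tfam-KO libraries and 212 ± 22.7 CPM in WT. The related gene P4ha2 (-2.43) fell, with Fam162a (-2.22), a mitochondrial protein gene, and the glycogen synthase gene Gys1 (-1.73). In the other direction the ferroxidase gene Cp rose by 2.60, with 32.7 ± 3.47 CPM in the labelled Tfam-KO libraries and 5.16 ± 1.86 CPM in WT. Named after their values were seen, the kinase gene Pim1 rose by 1.65 and the growth factor gene Vegfa did not pass (0.07). The count of 27 fallen genes was the same without any 1 library, and that of risen genes ran from 5 to 7.

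**Figure D4:**
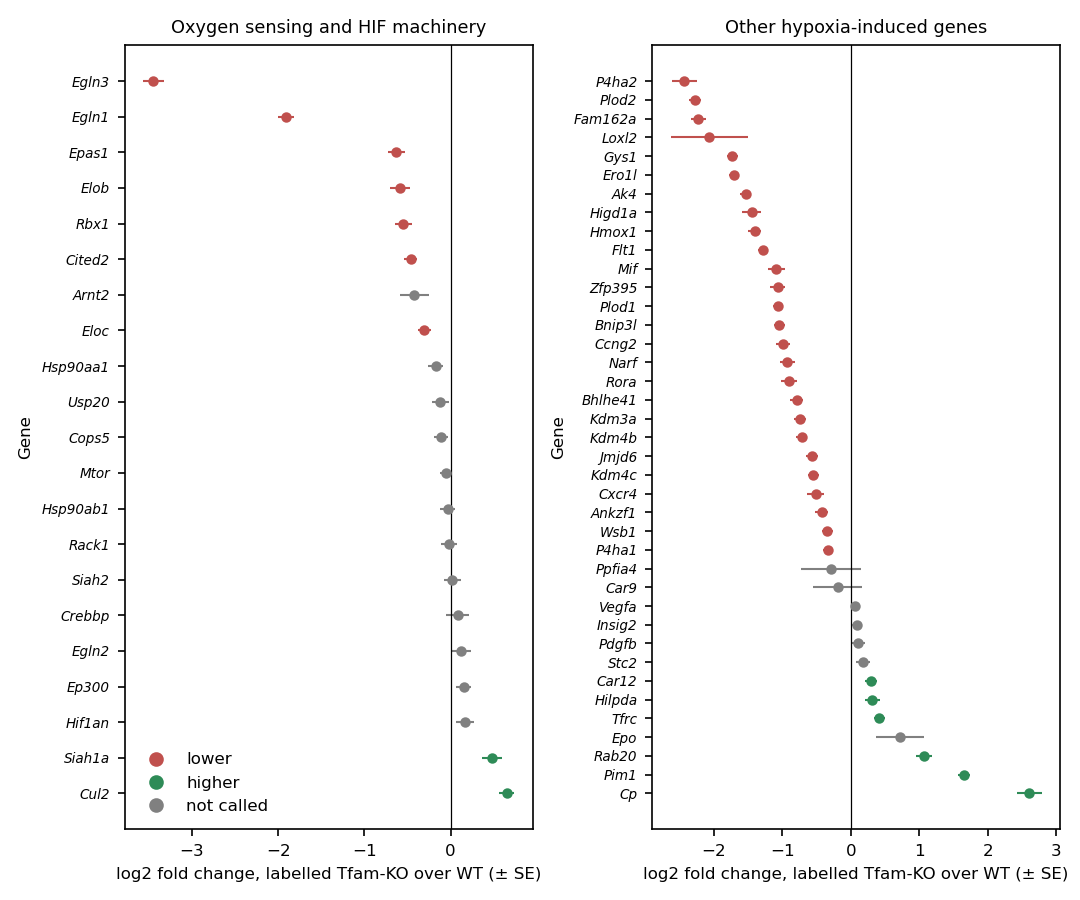
Points are log2 fold changes of labelled Tfam-KO over WT with SE from edgeR, for 21 oxygen-sensing genes (left) and 39 of the 40 other hypoxia-induced genes (right), coloured by call at an adjusted p below 0.05. On the left Egln3 (-3.45) and Egln1 (-1.91) stand apart from the other genes; on the right the values drawn run from -2.43 (P4ha2) to 2.60 (Cp).

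Counted by gene over all start windows, 18 of 19 fallen hypoxia-induced genes in the RefSeq table had either core. Of these 19, 12 had ACGTG. Among the 6 risen genes 4 had either core, and the same 4 counted for ACGTG. All 6 of the genes in the table that did not pass had either core, and 3 had ACGTG. Over the 9716 tested genes in the table, 66.7% had either core and 29.5% had ACGTG. A core was thus present in genes of each class and in most tested genes, and nothing is read from these counts.

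Bnip3 acts in mitophagy, and a list of mitophagy genes that includes Bnip3l held 12 tested genes. Of these, 6 fell, 2 rose and 4 were not called, where 22.9% of all tested genes fell and 21.3% rose, and the median log2 fold change was -0.28. The kinase gene Pink1 fell by 0.76 (32.5 ± 2.84 CPM in the labelled Tfam-KO libraries and 55.0 ± 1.47 CPM in WT). The autophagosome protein genes Gabarap (-0.40) and Map1lc3a (-0.36) fell too. The autophagy adaptor gene Sqstm1 rose by 1.78, with 2101 ± 35.1 CPM in the labelled Tfam-KO libraries and 611 ± 23.0 CPM in WT, and Bcl2l13, named after its value was seen, rose by 0.34. The call for Map1lc3a was lost with the length and GC offsets (adjusted p = 0.0700, edgeR).

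Mxi1 belongs to the MYC and MAX network, of which 9 other genes were tested: 4 fell, 2 rose and 3 were not called, and the median log2 fold change was -0.17. These shares compare with 22.9% lower and 21.3% higher over all tested genes. Myc rose by 1.73, with 16.6 ± 1.69 CPM in the labelled Tfam-KO libraries and 5.01 ± 0.206 CPM in WT (adjusted p = 5.51e-08, edgeR). The MYC antagonists Mxd4 (-1.81), Mxd1 (-0.37) and Mnt (-0.27) fell, as did the shared partner gene Max (-0.35), while Mlx rose by 0.24. The call for Mlx was lost without replicate 1 or 3 of the labelled Tfam-KO group or WT replicate 2 or 3 (adjusted p up to 0.140, edgeR). The call for Mnt was lost without WT replicate 3 (adjusted p = 0.0505, edgeR), with library totals, with the authors' log2 table and with the length and GC offsets.

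Markers were measured to check the labelled cell type. Of 13 microglia and macrophage markers with counts, macrophage genes such as Cd68 (1003 ± 56.2 CPM in the labelled Tfam-KO libraries and 1264 ± 134 CPM in WT) and Ptprc (252 ± 11.3 and 263 ± 12.8 CPM) were abundant, whereas the microglial markers Tmem119 (0.126 ± 0.218 and 0.517 ± 0.123 CPM) and Sall1 (0.157 ± 0.166 and 0.0454 ± 0.0395 CPM) were near 0. The summed level of the 13 markers was 2743 to 3021 CPM in the labelled Tfam-KO libraries and 3600 to 4133 CPM in WT; of 11 tested, 8 fell and 1 rose, against 22.9% and 21.3% of all tested genes. The marker that fell most was Csf1r (log2 fold change -1.46) and the 1 that rose was Adgre1 (0.61), both named after their values were seen. Summed levels of other cell types were 1.61 to 1.896 against 1.35 to 2.20 CPM in WT for 4 astrocyte markers, 2.07 to 2.83 against 1.35 to 3.26 CPM for 4 neuron markers, 11.95 to 14.2 against 24.4 to 25.5 CPM for 5 oligodendrocyte markers, and 0.488 to 0.614 against 1.64 to 2.83 CPM for 2 fibroblast markers. Of the oligodendrocyte and fibroblast markers tested, Mbp and Pdgfra fell, both named after their values were seen. Not found in the count table were 2 microglia and macrophage, 3 astrocyte, 3 neuron, 2 oligodendrocyte and 5 fibroblast markers. Their levels are not known from these data. The part of the counted markers in the results above was not tested.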

How the data were processed

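Poly(A) RNA libraries of 3 Tfam-KO-labelled and 3 WT BV2 samples were prepared using a NEBNext Ultra kit, per the labels' protocols; this kit keeps no strand information. The submitters' processing notes name featureCounts 2.0.0, HISAT2 2.1.0, SAMtools 1.9, bcl2fastq 2.17 and build GRCm39, without settings; for reads that map to several places, the handling was not stated. The authors deposited raw counts for 17872 genes, each with at least 6 counts in all, and a table of log2 values, which from the values are log2 of the total-scaled count plus 8.

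The deposited counts were fitted in R 4.3.3 by edgeR 4.0.16 (TMM, filterByExpr, glmQLFit, glmQLFTest, no covariates), with Benjamini-Hochberg adjustment over 13403 genes and calls below 0.05; 4469 genes were too low to test. SEs were derived from the F statistic. In simulated counts with 13281 genes tested, 100 genes were changed 1.5-fold and 100 were changed 2-fold, with equal numbers up and down. A single dispersion (0.00819) served all genes. Recovery was 87% at a 1.5-fold change and 100% at a 2-fold change, and 2.60% of calls were false. In the data 44.2% of genes were called, so these rates need not apply to them. The genes and lists were chosen with earlier results of these data known. Named genes were all 10 listed genes, the tested genes of the oxygen-sensing and relatives lists, up to 6 called genes of at least 1 CPM with the largest change in each other list, and the 3 nearest profiles per gene, of which the nearest is given for 6. A few genes under this rule are not reported here.

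Other settings tried were DESeq2 1.42.0, limma-voom and limma 3.58.1 on the authors' log2 table, median-ratio factors, library totals, no mitochondrial genes, no filter, 5 CPM in 3 libraries, a replicate block, offsets for transcript length and GC content, and each library left out. Transcript lengths (99.5% of tested genes matched by symbol) and overlaps came from GENCODE M21 on GRCm38, near copies from BLAST 2.17.0, and start windows from RefSeq (GRCm38.p6).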

Additional observations from a re-analysis of the deposited data

How the results depend on the processing

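The 9 genes were chosen from this contrast, so their values under the 16 alternatives, refits of the same libraries, are a description and not a check of stability; 7 were lower and 1 higher at the threshold in each. The median log2 fold change of the 9 genes was -0.94 with length and GC offsets, and from -1.21 to -0.98 with 1 library left out. Ankrd37 ran from -5.59 to -5.12, Selenbp1 from -4.24 to -3.99, Bnip3 from -3.27 to -3.07, Ndrg1 from -2.005 to -1.84, Ddit4 from -1.21 to -0.94, Bhlhe40 from -0.64 to -0.48, Mxi1 from -0.60 to -0.44, Vhl from -0.29 to -0.06 and Arnt from 0.35 to 0.51. Summing Selenbp1 and Selenbp2, an alternative added after the data were seen, gave -3.30. With the length and GC offsets 4 oxygen-sensing genes and 4 mitophagy genes were higher, and with library totals 1 close relative was; the cause was not tested. With 1 library left out, 0 to 1 close relatives and 1 to 2 MYC network genes were higher. With the replicate number as a block, 2501 genes were higher and 2754 lower. Same-numbered libraries of the groups did not deviate together (correlations -0.104, -0.114 and 0.0395 for numbers 1 to 3), so the numbers were not taken as pairs. Raw counts of 33 to 61 in the labelled Tfam-KO libraries limit the precision for Ankrd37.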
